A study of Mus musculus with 3 samples.

Results

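The 10 genes described here are embryonic kidney endothelial genes that the study placed on its list of embryonic endothelial genes with an ETS2 site upstream. These are Egfl7, Tll1, Myct1, Fxyd5, Vamp5, Rasgrp3, Prkch, Sipa1, Lyn and Lcp1, and listed genes that belong to better known families, such as the ETS factors, were left aside. A gene was measured if the platform annotation gave a probe set that single symbol, which held for 9 of the 10 genes, of 19938 named genes in all, and Lyn was not analysed here. They were chosen by their level in these arrays, which passed a filter on low signal and exceeded that of other embryonic kidney compartments (renal vesicle, capping mesenchyme and ureteric bud), and by the site upstream. The levels below therefore describe the 9 genes and are not tested.

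The series holds 1 group of 3 arrays, called arrays 1, 2 and 3 after the replicate numbers. All were made from CD-1 mice carrying Tg(TIE2GFP)287Sato, in which the Tie2 (Tek) promoter drives green fluorescent protein, at 15.5 dpc (Theiler stage TS23), with no treatment and no second genotype. Kidneys were pooled, 4 to 5 to a sample, treated with trypsin to free the cells, which were then sorted for GFP. RNA went through 1 round of amplification before hybridization to Affymetrix Mouse Gene 1.0 ST arrays. The sort collects whatever cells use the Tie2 promoter, which is known to be active in endothelium and also in some blood-forming and myeloid cells. The study describes its samples as independent and biological, at least 3 in each case. Whether each pool was drawn from its own litter is not in the labels. The p-values below therefore speak only of the spread between arrays, part of which may be technical.

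ETS factors are transcription factors with a shared DNA-binding domain that reads a short core, GGAA, seen as TTCC on the other strand. Several of them, among them Ets1, Erg and Fli1, are known for switching on endothelial genes as vessels form, and ETS2 is a member that responds to Ras and MAP kinase signals. The 10 genes are otherwise a mixed set. Egfl7 and Tll1 encode secreted proteins, Myct1, Fxyd5 and Vamp5 membrane proteins, Rasgrp3, Prkch, Sipa1 and Lyn signalling proteins, and Lcp1 an actin-bundling protein.

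The upstream sequence of these genes was read from RefSeq promoters (build GRCm38.p6), which had an entry for 8 of the 10 genes and 12 start sites in all. The search used the 250 bases upstream of each start and 4 words of 8 letters that spell out the ETS2 site, ACTTCCTG, ATTTCCTG, GCTTCCTG and GTTTCCTG, on both strands. It also used the 6-letter core TTCCTG, which lies inside each longer word. An 8-letter word was present for Egfl7, Myct1 and Rasgrp3, which is 3 of 8 genes (37.5%), against 10.4% of all 27025 genes with a RefSeq start. The core was present for 4 of 8 genes (50.0%), with Sipa1 added, against 28.3% of all genes. The site was one of the reasons these genes were listed, so both shares describe the list. The study counted evolutionarily conserved sites in proximal promoters. The search here took any match of the letters and did not look at conservation, so the shares do not check the study's sites. The stretches that hold a word are printed below from 5′ to 3′ on the strand of the gene, ending at the base before the start, with the word or core in capitals. They come from chr2:26583615-26583864 on the plus strand (Egfl7, the second of 3 starts), chr10:5593478-5593727 on the plus strand (Myct1), chr17:75435655-75435904 on the plus strand (Rasgrp3, the first of 2 starts) and chr19:5663708-5663957 on the minus strand (Sipa1).
Egfl7: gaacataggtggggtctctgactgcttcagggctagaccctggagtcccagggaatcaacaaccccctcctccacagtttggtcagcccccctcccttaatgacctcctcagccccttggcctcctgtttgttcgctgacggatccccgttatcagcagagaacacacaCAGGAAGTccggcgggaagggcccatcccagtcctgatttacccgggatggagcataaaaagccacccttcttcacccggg
Myct1: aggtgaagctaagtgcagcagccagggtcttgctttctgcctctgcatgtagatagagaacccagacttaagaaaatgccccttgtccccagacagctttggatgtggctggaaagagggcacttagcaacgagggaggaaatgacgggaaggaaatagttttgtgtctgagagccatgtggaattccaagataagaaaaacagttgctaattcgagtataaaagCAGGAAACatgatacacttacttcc
Rasgrp3: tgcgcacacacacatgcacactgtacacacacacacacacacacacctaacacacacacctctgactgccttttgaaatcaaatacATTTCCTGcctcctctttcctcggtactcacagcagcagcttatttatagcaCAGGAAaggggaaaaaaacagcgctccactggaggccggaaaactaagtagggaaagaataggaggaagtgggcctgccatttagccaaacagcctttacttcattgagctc
Sipa1: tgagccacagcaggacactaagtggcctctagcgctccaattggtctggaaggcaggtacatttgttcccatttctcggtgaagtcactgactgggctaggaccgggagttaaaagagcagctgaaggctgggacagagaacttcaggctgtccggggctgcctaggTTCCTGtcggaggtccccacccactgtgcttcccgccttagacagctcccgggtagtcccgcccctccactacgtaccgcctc

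In Egfl7 the word ACTTCCTG ran on the opposite strand, 81 to 74 bases before the start, and reads as CAGGAAGT in the printed sequence. The first Egfl7 start had the core alone, at 90 to 85 bases on the opposite strand and at 48 to 43 bases on the strand of the gene. The word of Myct1, GTTTCCTG, was the closest to a start, at 25 to 18 bases on the opposite strand. Rasgrp3 had ATTTCCTG at 164 to 157 bases on its own strand and a core on the opposite strand at 112 to 107 bases. The Sipa1 core lay at 83 to 78 bases on the strand of the gene. The positions and strands therefore differed from gene to gene. No word was found in the third Egfl7 start, the second Rasgrp3 start, the Tll1, Fxyd5 or Vamp5 start or either Lcp1 start, which says only that these letters are not in these windows. A match is a string of letters, not a bound site.

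**Figure D1:**
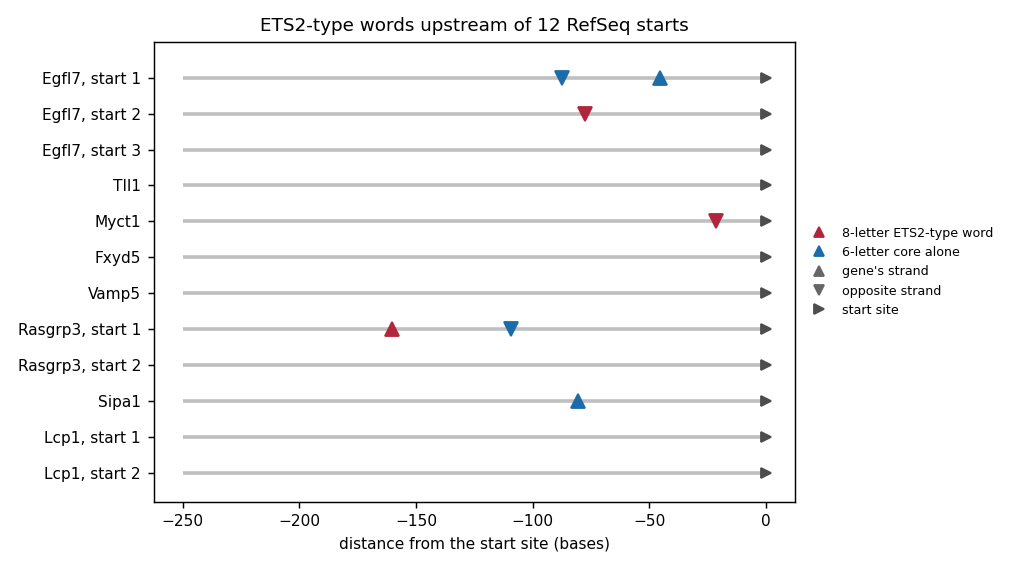
ETS2-type words in the 250 bases before 12 RefSeq start sites of 8 genes, with distance from the start in bases on the x axis; red triangles are 8-letter words, blue triangles the 6-letter core alone, pointing up for the strand of the gene and down for the opposite strand. Words of 8 letters appear at 3 of the 12 starts, at different distances.

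Expression values are the deposited log2 values, and a level of 100 on the linear scale (6.64 log2), the cut-off the study used for low signal, serves as the yardstick. All 9 measured genes were at 100 or over in all 3 arrays, a level that 47.3% of named genes reached and that the choice of the genes had already used. Their median was 9.03 log2, against 6.67 for all named genes. Probe sets differ in how strongly they bind, so the order of levels between genes is a rough one.

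Among the secreted proteins, Egfl7 is made mostly by endothelial cells and lies in the matrix around forming vessels, where it takes part in tube formation. Its values were 10.61, 10.23 and 9.85 log2 in arrays 1, 2 and 3, a mean of 10.23 ± 0.38 (SD, n = 3), or 1202 on the linear scale. Array 1 was the highest and array 3 the lowest, 1.69-fold apart. Tll1 is an astacin metalloprotease of the tolloid group that trims procollagens and the BMP antagonist chordin, and it is needed for septation of the mouse heart. It read 7.27 log2 (154.7 linear) in each array. Tll1 was the gene nearest the filter level, 1.55-fold over it, and none of the 9 lay under it.

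Of the membrane proteins, Vamp5 is a SNARE protein of the plasma membrane and vesicles, first described in muscle, and it gave 10.39 log2 in every array (1343 linear). Fxyd5, or dysadherin, is a small partner of the sodium pump that also loosens contacts between cells. It had 10.06, 11.07 and 9.70 log2, mean 10.28 ± 0.71 (SD, n = 3). Array 2 stood highest alone only for Fxyd5 among the 9 genes, and its range of 2.58-fold was the widest of them. Myct1, a small membrane protein first described as a target of Myc and found in endothelial and blood-forming cells, gave 9.32, 9.25 and 8.51 log2, mean 9.03 ± 0.45 (SD, n = 3). Arrays 1 and 2 lay close together for Myct1 and array 3 lower.

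The signalling genes held the highest of the 9. Rasgrp3, an exchange factor that binds diacylglycerol and loads Ras and Rap1 with GTP, had 11.63, 11.30 and 10.35 log2, mean 11.09 ± 0.66 (SD, n = 3). On the linear scale these are 3160, 2529 and 1307, and the mean stood at percentile 98.4 of named genes. Array 3 was again the lowest. Prkch encodes protein kinase C eta, an isoform that diacylglycerol activates without calcium, and its values were 9.46, 8.61 and 8.35 log2, mean 8.81 ± 0.58 (SD, n = 3). It was the only one of the genes with more than 1 probe set. The first of its 2 probe sets read 9.46, 8.66 and 8.13, and the second 9.46, 8.57 and 8.57. Both placed array 1 highest, but only the first separated array 3 from array 2. Sipa1, which switches Rap1 off by speeding its GTP hydrolysis, read 8.92, 8.92 and 8.37 log2, mean 8.74 ± 0.32 (SD, n = 3), with arrays 1 and 2 equal and array 3 below them.

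Lcp1 (L-plastin) bundles actin filaments and is best known from white blood cells. It gave 9.03, 9.03 and 9.02 log2, or 522.9, 522.9 and 518.4 linear. The 3 arrays were thus nearly the same for Lcp1. Values identical in all 3 arrays were found for 2 of the 9 genes, Vamp5 and Tll1, and for 25.6% of named genes, so an SD of 0.00 in this table is common and is no measure of how well a level is known.

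**Figure D2:**
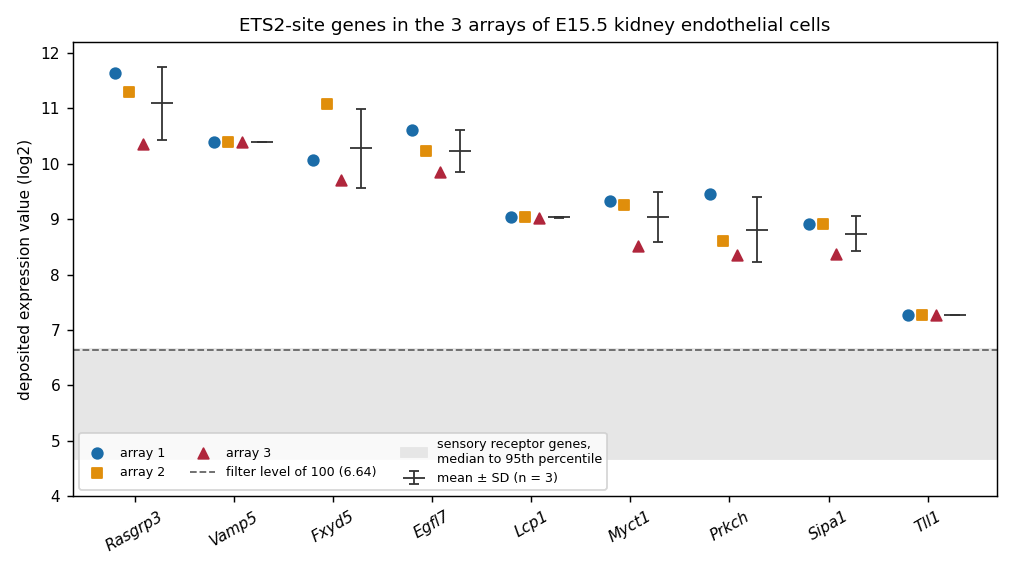
Deposited log2 value of each of the 9 measured genes in arrays 1 (circles), 2 (squares) and 3 (triangles), with mean ± SD beside them, the filter level as a dashed line and a grey band from the lowest median to the highest 95th percentile of 1190 odorant and pheromone receptor genes. All points lie over the level, and Tll1 is the closest to it.

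In order of mean level the genes ran Rasgrp3, Vamp5, Fxyd5, Egfl7, Lcp1, Myct1, Prkch, Sipa1 and Tll1. Most neighbours in this order did not separate. The array values did not overlap between Egfl7 and Lcp1, whose means were 1.21 log2 apart, or between Sipa1 and Tll1, 1.46 log2 apart. The other 6 pairs of neighbours overlapped, with means at most 0.70 log2 apart. These are levels of different probe sets, so neither overlap nor separation ranks the amounts of transcript.

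Array 3 stood apart from the others. It correlated with arrays 1 and 2 at r = 0.923 and 0.927 across probe sets, against 0.976 between arrays 1 and 2, and its spread of values was the narrowest, with an SD of 1.84 log2 against 2.08 and 2.06. Of the 9 genes, 7 were lowest in array 3, against 28.2% of all named genes, and 0 were highest there, against 37.9%. Among the 6627 named genes with a mean in the same range, 4094 (61.8%) were lowest in array 3 and only 755 highest there. Lcp1 counts among the 7 with a difference of only -0.01 log2. The median difference of array 3 from the mean of arrays 1 and 2 was -0.57 log2 for the 9 genes and -0.22 for genes in that range. Rasgrp3 had the widest gap, -1.11 log2, followed by Fxyd5 (-0.86), Myct1 (-0.78), Prkch (-0.69), Egfl7 (-0.57) and Sipa1 (-0.56). After quantile normalization these 6 were still lower in array 3, with differences between -0.85 (Rasgrp3) and -0.15 log2 (Sipa1), while Lcp1 (0.41), Vamp5 (0.28) and Tll1 (0.15) were higher there, and 4 of the 9 were lowest in array 3.

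Cell type markers differed between the arrays too. The 17 pan-endothelial markers had a median difference of -0.91 log2 in array 3, and 16 were lowest there. Their summed linear level was 22100, 19930 and 12430 in arrays 1, 2 and 3, and that of the 9 genes was 9639, 9396 and 6100. Macrophage markers ran the other way, with 12 of 16 highest in array 3, a median difference of 1.06 log2 and sums of 2012, 4836 and 8623. For Csf1r, the receptor that macrophages depend on, the values were 6.45, 6.98 and 7.41 log2, and for the lysosomal protein Cd68 they were 7.30, 8.95 and 8.82. Mean values of Adgre1 (F4/80) and of Cd14 (named after its values were seen) were at or under 6.41 log2, the 95th percentile of odorant and pheromone receptor genes. Of 8 pan-leukocyte markers, 7 were highest in array 3, with sums of 541.0, 706.9 and 1257. Most of that difference was Cd53, a tetraspanin of white cells, at 5.71, 7.37 and 9.20 log2, and the other 7 summed to 488.7, 541.6 and 668.2. On average 5 of the 8, Ptprc included, were at that background. Of the 1190 odorant and pheromone receptor genes themselves, 873 were highest in array 3, with a median difference of 0.3 log2. Among the pan-leukocyte markers highest in array 3, Coro1a differed by only 0.04 log2 and Rac2 (named after its values were seen) by 0.02. Lcp1 was level across the arrays in the deposited values, but its array 3 difference was 0.41 log2 after quantile normalization, where the pan-leukocyte median was 0.36 and the macrophage median 1.36. The same step moved other genes too. Vamp5, also level as deposited, then differed by 0.28 log2, and the median of genes in the range of the 9 went from -0.22 to 0.08. In a sorted bulk sample, fewer cells of a type and less RNA per cell cannot be told apart, and the part of these markers in the level of any of the 9 genes was not tested.

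**Figure D3:**
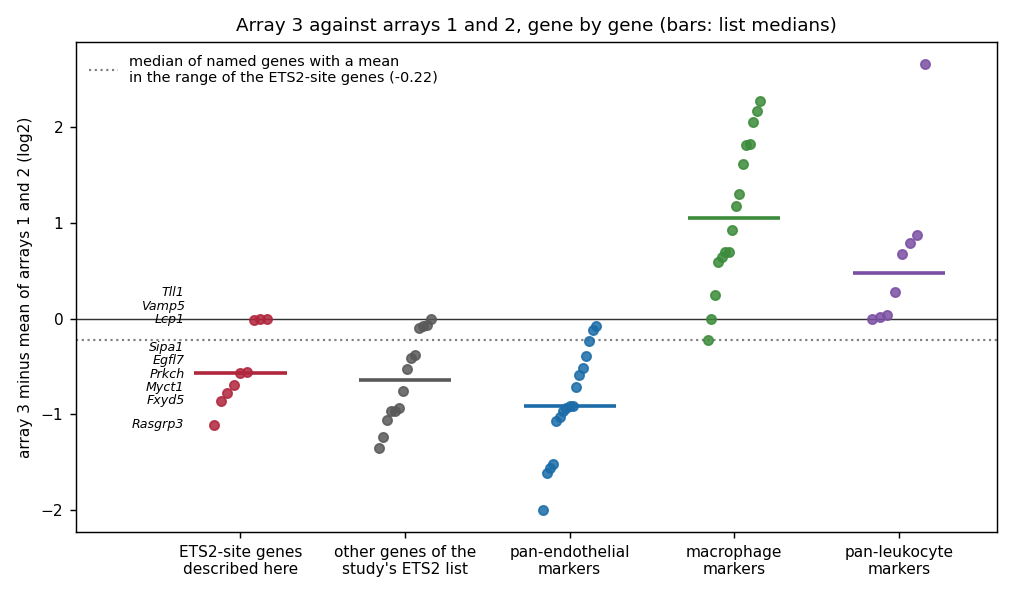
Difference of array 3 from the mean of arrays 1 and 2 (log2) for each gene, in the 9 ETS2-site genes, the other 14 genes of the study's ETS2 list, and endothelial, macrophage and pan-leukocyte markers; bars are list medians and the dotted line is the median of named genes of similar level. The ETS2-site genes and the endothelial markers lie at or under 0, and most macrophage markers over it.

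The labelled cell type was set beside the same marker lists, with a one-sided limma test of each gene against the filter level. P-values were adjusted over every probe set by Benjamini-Hochberg. By this test 41.6% of named genes passed as above the level, and 41.6% as below it. Since 55.9% of probe sets had the same value in at least 2 arrays, the fitted spread of many genes rests on tied values. Calls are therefore also given with 1 spread pooled over all probe sets for named genes where they differ. With it, 7180 of all 19938 named genes were above and 6474 below. Of the 17 pan-endothelial markers, 15 were above and 0 below, and all 17 were at 100 or over in every array. Pecam1, Cdh5, Kdr, Tie1, Tek, Eng, Robo4, Icam2 and Sox18 are among them and on the study's list of embryonic endothelial genes. Their level in these arrays was part of how that list was made, so their calls do not check the cell type. Pecam1, an adhesion protein of endothelial junctions, had 10.09 ± 0.60 log2, Cdh5 (VE-cadherin) 11.08 ± 0.59 and Kdr, the main VEGF receptor, 9.89 ± 0.96 (SD, n = 3 each). With 2 arrays left in the fit the count above was 6 without array 1, 4 without array 2 and 14 without array 3. Of 16 macrophage markers 2 were above, Tyrobp and Cx3cr1 (named after their values were seen), and 1 below, but 11 were above with the pooled spread, 0 without array 2 and 0 without array 3. Above and below the level were 1 and 3 of 8 pan-leukocyte markers, 0 and 7 of 8 lymphocyte markers, 0 and 6 of 10 granulocyte and mast cell markers, 2 and 2 of 5 megakaryocyte and platelet markers, and 1 and 4 of 6 erythroid markers. Kidney cells outside the vessels gave 3 and 4 of 8 nephron progenitor markers, 2 and 4 of 8 ureteric bud markers, and 4 and 4 of 9 markers of stroma and mural cells. These last 3 lists gave, with the pooled spread, 4 and 1, 0 and 1, and 2 and 3, the erythroid list 0 and 4, and the platelet list 2 and 0.

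ETS2 itself was read by this array. Ets2 had 10.29, 9.40 and 8.22 log2, mean 9.30 ± 1.04 (SD, n = 3), above the level (adjusted p = 0.0395), and its array 3 difference was -1.63 log2. Spi1, which encodes the myeloid ETS factor PU.1, had 6.22, 6.46 and 6.96 and lay on neither side. Array 3 was the lowest for Ets2 and the highest for Spi1. Spi1 lay close to the 95th percentile of odorant and pheromone receptor genes, 6.27, 6.38 and 6.66 log2 in arrays 1, 2 and 3. Of 25 measured ETS factors, 11 were above the level and 7 below, against 41.6% each way among all named genes. With the pooled spread 16 were above and 5 below, where 7180 and 6474 of all 19938 named genes were. Ets1, Erg, Fli1, Elk3 and Elf4, all above, are on the study's list of embryonic endothelial genes, so their calls were partly fixed in advance.

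Close relatives of the 10 genes were not part of the list and could be tested. Of 36 measured relatives, 17 were above the level, 12 below and 7 on neither side, against 41.6% each way among all named genes. With the pooled spread 15 were above and 5 below, where 7180 and 6474 of all 19938 named genes were. Relatives above were 8 without array 1, 7 without array 2 and 21 without array 3. Named genes above in the same fits were 5531, 5051 and 8023, against 8295 with all arrays.

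Families of the secreted proteins were split. Egfl8, the closest relative of Egfl7, was above the level at 7.92 log2 in each array, while Egfl6, a more distant EGF-repeat protein, was below it at 5.22 ± 0.39 log2 (adjusted p = 0.0171). Bmp1, the founding tolloid protease, was above at 7.88 ± 0.06 log2, and Tll2 was below at 5.63 ± 0.04 (SD, n = 3 each). Thus Tll1 and Bmp1, but not Tll2, were read at over 100.

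Among relatives of the membrane proteins, 3 of 6 FXYD genes were above and 3 below. Fxyd6 was above at 7.50 ± 0.01 log2, as were Fxyd4 at 6.96 ± 0.00 and Fxyd7 at 7.11 ± 0.17, and Fxyd1, Fxyd2 and Fxyd3 were below, between 5.67 and 6.30. With the pooled spread only Fxyd6 stayed above and only Fxyd3 below. Of 5 measured VAMP genes, 4 were above the level. Vamp8, a SNARE of late endosomes and secretory granules, averaged 11.16 ± 0.62 log2, Vamp4 of the trans-Golgi 9.70 ± 0.00, Vamp3 of recycling endosomes 9.51 ± 0.66 and Vamp7 of lysosomes 8.12 ± 0.34 (SD, n = 3 each). Vamp1, known from neurons, was below at 6.29 ± 0.00, though on neither side with the pooled spread.

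For the signalling genes, 1 of 3 relatives of Rasgrp3 was above the level. This was Rasgrp2, best known from platelets, at 7.48 ± 0.11 log2 (adjusted p = 0.00507). Rasgrp1, the lymphocyte form, was below at 5.89 ± 0.00, and Rasgrp4 of mast cells, at 6.57 ± 0.45, was on neither side. In the protein kinase C family 3 of 7 were above, namely Prkci at 9.01 ± 0.03, Prkcd at 7.12 ± 0.10 and Prkce at 7.11 ± 0.19 log2, and the calcium-dependent Prkca (6.31) and Prkcb (6.49) were below. With the pooled spread Prkca, Prkcb, Prkcd and Prkce were all on neither side, and of the 5 calls only that of Prkci, an atypical isoform that needs no diacylglycerol, held. Prkcz (named after its values were seen) was called above with the pooled spread, although its mean of 6.58 ± 0.30 lay under the level. A gene is called above when 1 of its probe sets is, so its probe sets disagreed and this call does not describe its mean. Relatives of Sipa1 gave 2 of 3 above, Sipa1l2 at 6.97 ± 0.04 and Sipa1l3 at 7.48 ± 0.32, and Sipa1l1 at 7.27 ± 0.67 on neither side. The calls of Sipa1l1 and Sipa1l2 changed places with the pooled spread, Sipa1l2 being on neither side and Sipa1l1 above.

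Lyn belongs to the SRC family of tyrosine kinases, of which 6 other members were measured. Yes1 at 9.96 ± 0.25 log2 and Fyn at 9.71 ± 0.73 were above the level (SD, n = 3 each), and both are widely used outside blood cells. Src read 6.15 ± 0.00 and was below with the fitted spread, though on neither side with the pooled one. Blk, a B cell kinase, was below at 6.09 ± 0.20 log2 and Fgr, a kinase of myeloid cells, on neither side at 6.34 ± 0.32 (both named after their values were seen), and with the pooled spread Blk was on neither side too.

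Plastins other than Lcp1 gave 0 above. Pls1, the plastin of the intestinal brush border, was below at 4.93 ± 0.00 log2. Pls3, the plastin of most solid tissues, had 9.21, 8.99 and 6.77 log2, mean 8.33 ± 1.35 (SD, n = 3), on neither side (adjusted p = 0.148), though above with the pooled spread. The difference of array 3 from the others was -2.33 log2 for Pls3 and -0.01 for Lcp1.

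**Figure D4:**
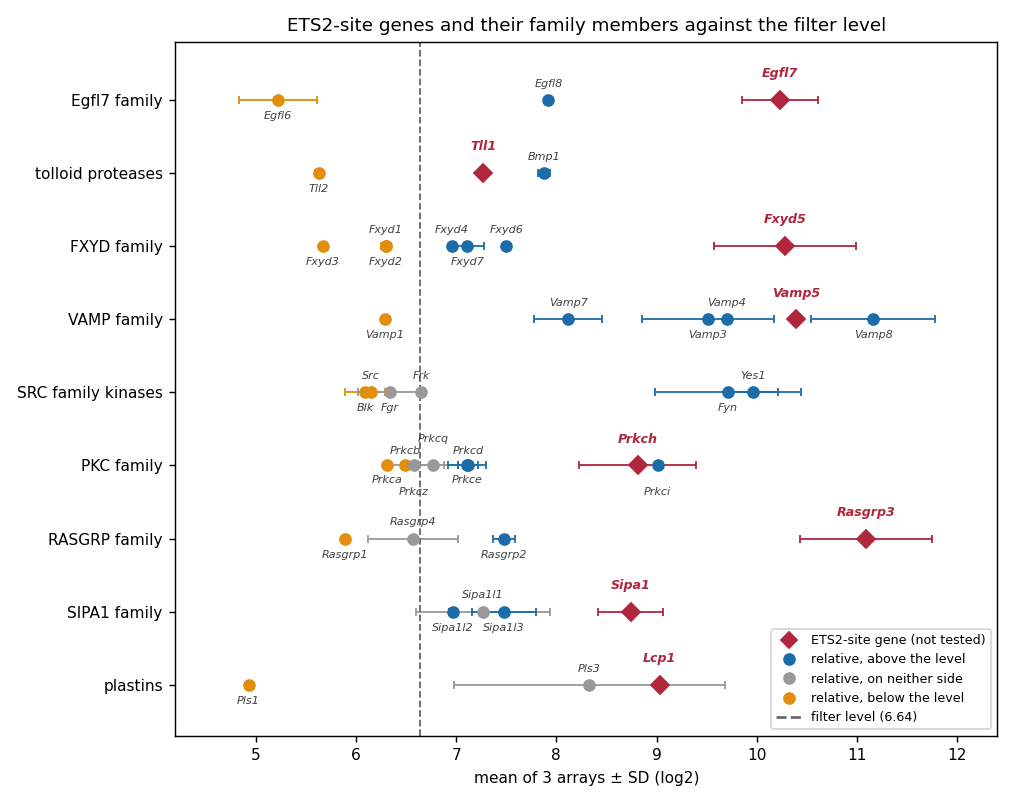
Mean of 3 arrays ± SD (log2) for the ETS2-site genes (red diamonds) and their relatives by family, coloured by the limma level test, with the filter level as a dashed line; the SRC family has no diamond because Lyn was not analysed. The 8 diamonds lie right of the line, and relatives lie on both sides of it.

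Genes that act together with the 10 were taken from lists by role, 85 measured in all. Of these 49 were above the level and 19 below (44 and 12 with the pooled spread). Among all named genes the shares were 41.6% each way, and the counts by role below are to be read beside them. With the pooled spread 7180 of all 19938 named genes were above and 6474 below. Role genes above were 29 without array 1 and 27 without array 2, but 50 without array 3. Below were 12, 11 and 22 in the same fits. Named genes above were 5531, 5051 and 8023, and below 5338, 5163 and 9085.

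Around Rasgrp3 and Sipa1, 10 of 15 genes of the Rap1 cycle were above the level and 2 below. The GTPases Rap1a at 10.93 ± 0.00, Rap1b at 11.53 ± 0.50 and Rap2a at 10.08 ± 0.18 log2 were above (SD, n = 3 each), while Rap1gap, another brake on Rap1 (named after its values were seen), was below at 6.24. In the Ras cycle 9 of 11 genes were above and 0 below. Nras averaged 11.02 ± 0.34 and Mras 6.89 ± 0.12 log2, both above, and Rras, a Ras relative known from vessels, had 8.74, 8.74 and 7.41 (adjusted p = 0.0551). Rap1gap and Mras were on neither side with the pooled spread, and Rras was above.

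Diacylglycerol, which activates both Rasgrp3 and Prkch, is made by phospholipase C and removed by diacylglycerol kinases. Of 15 such genes 7 were above and 5 below. Plcb3 was above at 7.68 ± 0.00 log2, Plcb2 below at 5.64 ± 0.00 and Plcb1 on neither side at 6.88 ± 0.78 (SD, n = 3 each). Plcg1, the phospholipase that acts below the VEGF receptor Kdr, was above at 8.51 ± 0.59 log2 (named after its values were seen).

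SRC kinases such as Lyn are held in check by Csk, which was above the level at 7.87 ± 0.00 log2, and by its membrane anchor Pag1, which was below at 5.10 ± 0.05. Matk, a relative of Csk known from blood cells and brain, was on neither side at 6.74 ± 0.25. Of the 9 genes of this role 3 were above and 2 below.

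For the membrane proteins, 9 of 12 SNARE partners were above and 1 below. Stx1a at 6.92 ± 0.00 and Stx3 at 6.84 ± 0.00 log2 were above with the fitted spread but on neither side with the pooled one, and Stx2 was on neither side at 7.21 ± 0.61. The plasma membrane SNAREs Stx4a at 10.81 ± 0.16 and Snap23 at 10.57 ± 0.59 log2 were the highest of the role (named after their values were seen). Of the sodium pump, which FXYD proteins tune, 4 subunits were measured. Atp1a4, the sperm isoform, at 5.55 ± 0.48 and Atp1b1 at 6.42 ± 0.11 log2 were below and Atp1b2 at 6.45 ± 0.12 on neither side (SD, n = 3 each), as was Atp1b1 with the pooled spread. Atp1b3 alone was above, at 8.91 ± 0.37 log2 (named after its values were seen).

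Tolloid substrates and helpers gave 4 of 9 above and 5 below, and 2 and 3 with the pooled spread, which left Chrd and Pcolce on neither side. Chrd, the BMP antagonist that tolloids cut, was below at 6.07 ± 0.00 log2. Pcolce, which speeds procollagen trimming, was above at 6.95 ± 0.09 and its relative Pcolce2 below at 5.25 ± 0.44 (SD, n = 3 each). Among other actin-bundling genes 3 of 6 were above and 1 below, with Actn4 at 9.29 ± 0.71 log2 above. Actn1 at 7.24 ± 0.40 log2 was on neither side, as was Fscn1 (fascin), whose arrays read 9.96, 9.28 and 7.74 and which was above with the pooled spread.

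**Figure D5:**
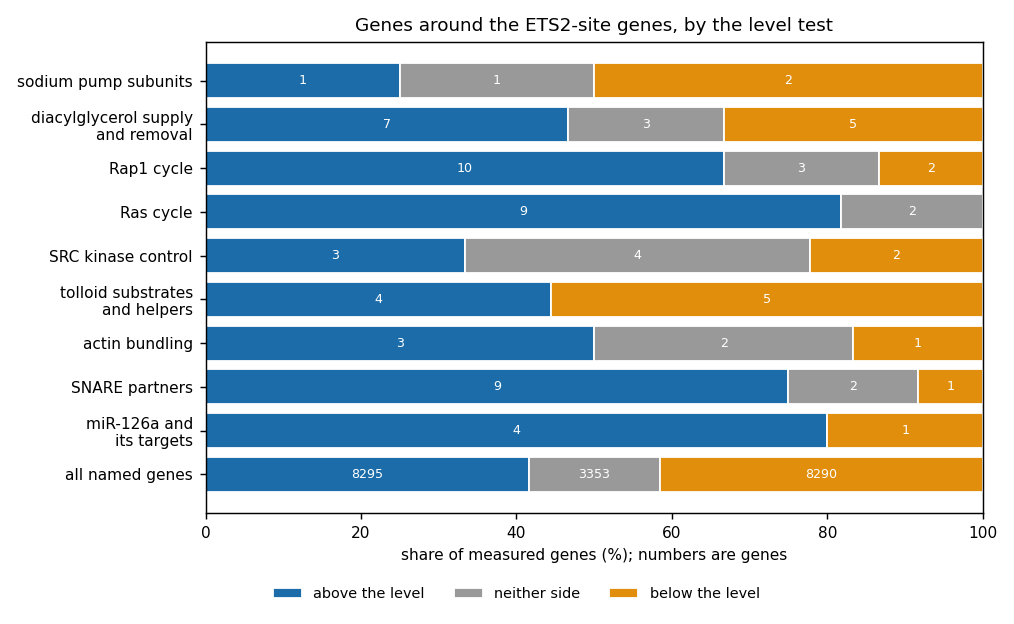
Share of measured genes (%, x axis) above, on neither side of and below the filter level by the limma test, for each role around the ETS2-site genes and for all named genes; numbers in the bars are genes. The Ras cycle has 9 of 11 genes above and none below, the tolloid role 4 of 9 above and 5 below.

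An intron of Egfl7 carries the hairpin of miR-126, a microRNA abundant in endothelium that is known to repress Spred1, Pik3r2, Vcam1 and Crk. Its mature 3p strand lies at chr2:26591402-26591423 on the plus strand (RefSeq, GRCm38.p6), downstream of all 3 Egfl7 starts, and is printed with the seed, bases 2 to 8, in capitals.
mmu-miR-126a-3p: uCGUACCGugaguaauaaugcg

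The probe set named Mir126a read 3.59, 3.59 and 4.46 log2, below the level (adjusted p = 0.008), while its host gene Egfl7 read 10.61, 10.23 and 9.85. Array 3 was the highest for Mir126a and the lowest for Egfl7. But Mir126a lay under the median of odorant and pheromone receptor genes in each array. That median was 4.68, 4.71 and 5.08 log2 in arrays 1, 2 and 3, also highest in array 3, so the Mir126a values are background signal. A whole-transcript array is not made to capture a mature microRNA, so this is no reading of the mature strand printed above. The 4 measured targets were above the level, Spred1 at 8.66 ± 0.05, Pik3r2 at 6.86 ± 0.02, Vcam1 at 7.15 ± 0.17 and Crk at 8.26 ± 0.02 log2 (SD, n = 3 each; Vcam1 and Crk were named after their values were seen), although Pik3r2 and Vcam1 were on neither side with the pooled spread.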

How the data were processed

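Gene expression was measured in 3 arrays of Tie2-GFP sorted cells, a single group. The deposited table holds log2 values made by the authors for 35557 probe sets. Affymetrix Expression Console is the tool in the submitters' processing notes, and how its probes were summarized is not stated there. The study's methods name RMA in GeneSpring and a cut-off of 100 on raw signal for its own analysis. The log2 values were used as deposited, and the number of arrays limits their precision.

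The platform annotation gave 1 symbol to 21789 probe sets, several to 1621 and left 12147 unnamed here, and 21698 matched RefSeq (GRCm38.p6) by identifier. A gene's value was the mean of its single-symbol probe sets. Levels were tested against 100 (6.64 log2) with limma 3.58.1 in R 4.3.3 (intercept-only fit, eBayes, one-sided in each direction, Benjamini-Hochberg over all probe sets, 0.05). One probe set above the level put a gene above it, and a gene was below when every probe set was. The 9 listed genes were not tested. The test was checked on simulated data. Python 3.11.15 with pandas 2.3.3 and matplotlib 3.10.9 did the rest.

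The 10 genes and all gene lists were chosen with earlier results of these data known. Named were the 10 genes, relatives above the level, Ets2, Spi1 and the first 3 measured genes of each family and role. The same held for the pan-endothelial, macrophage and pan-leukocyte lists, and the other marker lists are given as counts. Markers and ETS factors on the study's list are also named. Others are marked as named after their values were seen. Alternatives were levels of 75 and 150, a pooled spread, quantile normalization, centring on 1 median, the highest probe set of a gene, leaving out probe sets under 32, and leaving out each array.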

Additional observations from a re-analysis of the deposited data

How the results depend on the processing

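All 9 genes were at the filter level or over it in every array under each alternative tried, including levels of 75 and 150. A level of 75, the pooled spread, leaving out an array and leaving out probe sets under 32 could not have lowered this count. At 150 the nearest gene was Tll1, at 154.7 linear. Centring cannot change a mean over the 3 arrays. Leaving out 1 of 3 arrays cannot move a mean by more than its SD, so neither setting checks the 9 mean levels. After quantile normalization Tll1 averaged 7.28 log2 in place of 7.27 and Vamp5 10.38 in place of 10.39, both with an SD of 0.00. The means of the other genes moved by no more than their SD. The median of the 9 genes, 9.03 log2, ranged over 9.02 to 9.29 when an array was left out, with 9.29 without array 3. The number lowest in array 3, 7 in the deposited values, was 4 after quantile normalization, 6 with the highest probe set and 9 with the arrays centred on 1 median, and it has no value without array 3. At a level of 150, 4892 named genes were above in place of 8295, 9 relatives in place of 17, 28 role genes in place of 49 and 0 macrophage markers in place of 2, and 33 role genes were below in place of 19. At a level of 75, 6 relatives in place of 12 and 10 role genes were below, and 7 macrophage markers were above. With the pooled spread, 5 relatives and 12 role genes were below and 11 macrophage markers above. Leaving out each array in turn gave 5051 to 8023 named genes above and 5163 to 9085 below (8290 with all arrays), 7 to 21 relatives above and 9 to 14 below, 27 to 50 role genes above and 11 to 22 below, 4 to 14 pan-endothelial markers above (15 with all arrays) and 0 to 2 macrophage markers above. Each of these counts was at its lowest without array 2, a place shared with the fit without array 1 for relatives below and without array 3 for macrophage markers. Without array 1, 5338 named genes and 12 role genes were below, and 8 relatives, 29 role genes and 6 pan-endothelial markers above. A fit of 2 arrays has fewer samples. Of these fits, the one without array 3 gave the highest of each count except macrophage markers above. The sum of pan-leukocyte markers without Cd53 was taken after the data were seen. No paired analysis was possible because the series holds a single group. Signal over background limits Tll1 most, at 7.27 log2 against 6.27, 6.38 and 6.66 for the 95th percentile of odorant and pheromone receptor genes in arrays 1, 2 and 3.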
